A study of Mus musculus with 2 samples.

Results

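The Egr, Nr4a and Npas4 genes encode transcription factors that neurons switch on when they are active, and the Nab genes encode corepressors that bind Egr proteins. The 10 genes described here were Egr1, Egr2, Egr3, Egr4, Nr4a1, Nr4a2, Nr4a3, Npas4, Nab1 and Nab2, found by gene symbol among the 32531 symbols of the count tables. They were selected on their CPM levels and on the differences between these libraries, so both are given as a description, without a test. RNA was taken from the dentate gyrus of untreated adult mice carrying the Lypd1-EGFP/Rpl10a transgene of line OI82. The line expresses an EGFP-tagged ribosomal protein under regulatory sequence of Lypd1, so tagged ribosomes come from whichever dentate cells use that sequence. Ribosomes were pulled down with antibodies against EGFP, and the bound RNA was sequenced (translating ribosome affinity purification, TRAP). The 1 group held 2 libraries, replicate 1 and replicate 2, both pull-downs. The sources used here do not give sex, strain or the number of animals per library, so it is not known how much of the spread between the libraries is technical. Xist, an RNA that coats the inactive X, was counted 15 times in replicate 1 against 369 times in replicate 2, a log2 ratio of 4.48 (3.91 to 5.50).

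Neurons transcribe the Egr, Nr4a and Npas4 genes within minutes of calcium entry, without needing new protein first, and keep many of them low at rest. Serum response factor with its Elk cofactors drives the Egr genes, and CREB drives the Nr4a genes. Egr proteins bind GC-rich DNA through zinc fingers and are held back by Nab proteins, some of which they induce themselves. Nr4a proteins are orphan nuclear receptors that act without a known hormone. Npas4 pairs with Arnt proteins and is induced by calcium rather than by growth factors. In the hippocampus Egr1, Egr3, the Nr4a genes and Npas4 have all been tied to plasticity and memory.

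The libraries held 31309643 and 32711412 counts on gene lines. Levels are counts per 1000000 of these (CPM), so that 1 count is worth 0.0319 CPM in replicate 1 and 0.0306 CPM in replicate 2. Intervals are exact 95% intervals that treat reads as independent and cover counting error only. Reads without molecular identifiers are not independent molecules, so the intervals may be too narrow even for that. Granule cell markers were high in both libraries, with all 7 of 7 detected at a CPM of at least 1 and summed levels of 3645 and 3614 CPM. All 10 activity factor genes had counts in both libraries, and 9 of them reached 1 CPM in both. The exception was Egr2. Together the 10 genes made up 578 CPM in replicate 1 and 2343 CPM in replicate 2. Egr3 alone supplied 52.6% of their counts in replicate 1 and 88.4% in replicate 2.

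**Figure D1:**
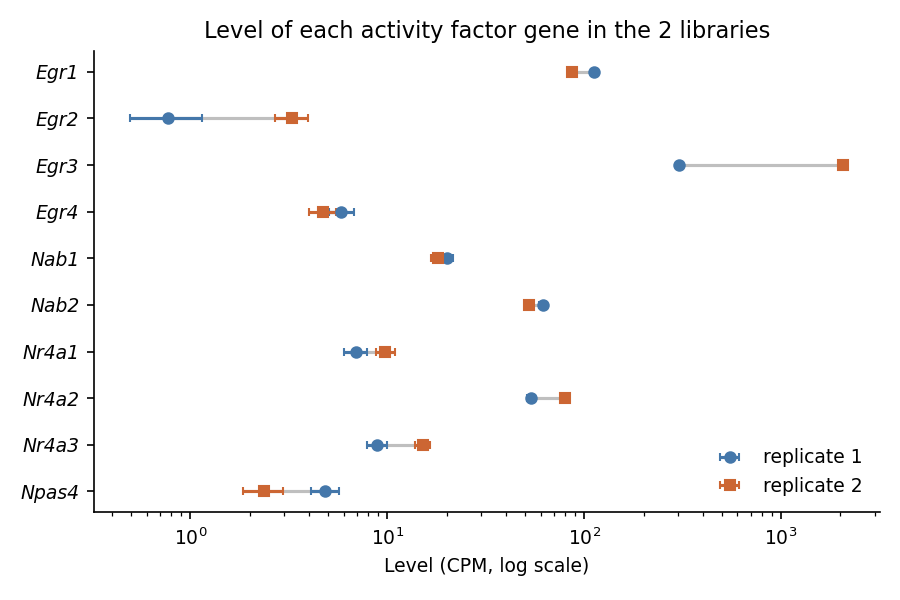
Level of each of the 10 genes in replicate 1 (circles) and replicate 2 (squares), in CPM on a log axis, with exact 95% Poisson intervals. Egr3 is the highest gene in both libraries, at 304 and 2071 CPM, and Egr2, at 0.767 and 3.27 CPM, is among the lowest.

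Per kilobase of exon, which allows genes to be compared, Egr3 led the 10 genes at 270 ± 284 CPM per kilobase (SD, n = 2), and its lower library was still above every other gene. Egr1 (22.1 ± 4.07 CPM per kilobase), Nab2 (19.4 ± 2.13) and Nr4a2 (16.5 ± 4.64) came next, and neighbours in that order overlapped between libraries. Nab1 followed at 4.65 ± 0.316 CPM per kilobase, below both values of Nr4a2. Egr4 (2.46 ± 0.374 CPM per kilobase), Nr4a1 (2.38 ± 0.581) and Nr4a3 (2.01 ± 0.739) formed a lower step, again with overlapping neighbours. Npas4 (0.868 ± 0.422 CPM per kilobase) and Egr2 (0.594 ± 0.521) were at the bottom, and Egr2 was the lowest of all in replicate 1 while Npas4 was the lowest in replicate 2.

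Between the libraries, the genes did not differ as a block. Log2 ratios of replicate 2 to replicate 1 were above 0 for 5 of the 10, which were Egr2, Egr3 and the 3 Nr4a genes, against 49.2% of the 13089 genes with mean CPM of 1 or more. Egr2 and Egr3 stood 2-fold or more higher in replicate 2, a distance that 4.51% of those genes reached. None of the 10 was 2-fold lower, against 5.75% of genes, although Npas4 was 1.90-fold lower. The median log2 ratio of the 10 was 0.27, beside -0.0092 over all genes tested. In bulk RNA of this kind, fewer cells of a type and less RNA per cell cannot be told apart. With 1 library on each side these ratios compare 2 libraries and carry no p-value.

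**Figure D2:**
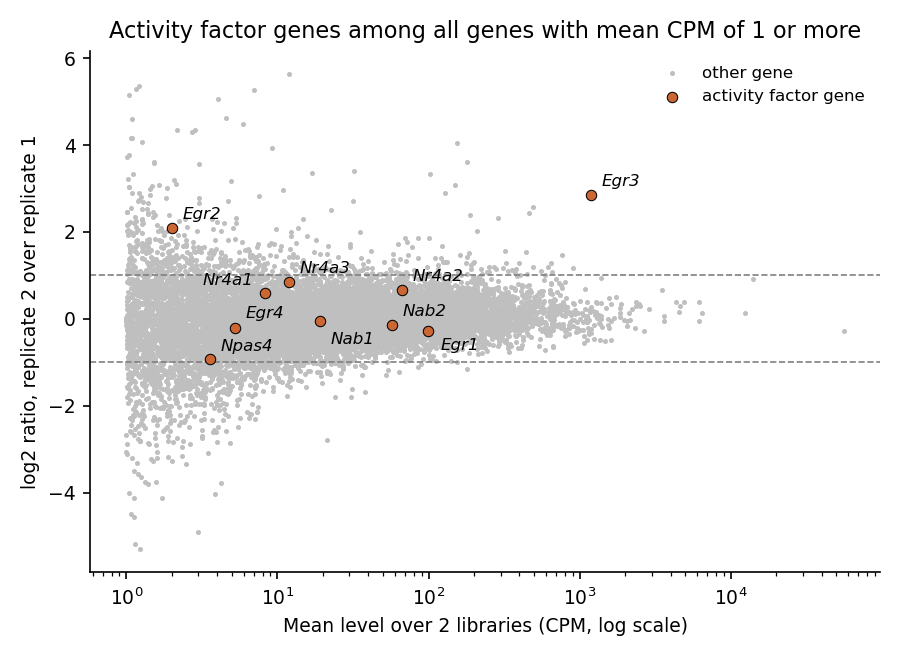
Log2 ratio of replicate 2 to replicate 1 against mean level in CPM (log axis) for the 13089 genes with mean CPM of 1 or more (grey) and the 10 activity factor genes (orange, named), with dashed lines at 2-fold. Egr3 sits apart from the grey cloud at a log2 ratio of 2.86, while Egr1, Egr4, Nab1 and Nab2 lie inside it.

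Egr3 encodes a zinc finger factor that takes part in muscle spindle formation and in hippocampal plasticity. Its gene lies on chromosome 14 (70077203 to 70082614, plus strand, GRCm38) and has 4.406 kb of exon. It was counted 9521 times in replicate 1 and 67739 times in replicate 2. Its level was 304 CPM (298 to 310.3) in replicate 1 and 2071 CPM (2055 to 2086) in replicate 2. Log2 ratios here use rescaled library totals (TMM), so they differ slightly from the ratio of the CPM levels. On that scale the difference was 7.26-fold, or a log2 ratio of 2.86 (2.83 to 2.89). With library totals alone the log2 ratio was 2.77. By mean level Egr3 ranked 61 among all symbols, with replicate 2 holding most of it. Only 42 of the 13089 genes tested had a higher ratio. Among the 2214 genes at 100 CPM or more, 2.71% were at least 2-fold higher in replicate 2.

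No other gene had nearly the same pair of values as Egr3. The nearest by distance on the log2 CPM scale over the 2 libraries were Nefm, the medium neurofilament gene, at 425 and 1111 CPM (distance 1.02), Syne1 at 578 and 1220 CPM (1.20) and Nrn1, which encodes neuritin, at 391 and 894 CPM (1.26). Genes picked for nearness to Egr3 in the 2 libraries tend to share its direction through that choice. The log2 ratios of these 3 were 1.48, 1.17 and 1.28, each less than that of Egr3.

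Egr1, the most studied member of the family and also known as Zif268, did not follow Egr3. Its gene lies on chromosome 18 (34859823 to 34864984, plus strand). It was at 112 CPM (108 to 116) in replicate 1 and 86.2 CPM (83.1 to 89.5) in replicate 2. The log2 ratio was -0.29 (-0.36 to -0.21), a change that 55.9% of genes exceeded in size in one direction or the other. Egr3 had 2.71 counts for each count of Egr1 in replicate 1 and 24.0 in replicate 2, a comparison that does not depend on how the libraries are scaled.

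Egr2, known for its part in hindbrain segments and in myelination by Schwann cells, was scarce and rested on few counts. Its gene lies on chromosome 10 (67535475 to 67542188, plus strand). It was counted 24 and 107 times, giving 0.767 CPM (0.491 to 1.14) in replicate 1 and 3.27 CPM (2.68 to 3.95) in replicate 2. Its log2 ratio was 2.10 (1.54 to 2.89), a counting interval that was clear of 0 but left the size loosely fixed. Genes this low scatter widely, and of the 4647 genes with a mean of 1 to under 10 CPM, 8.74% were at least 2-fold higher in replicate 2.

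Egr4, a less studied family member on chromosome 6 (85511121 to 85513589, minus strand), was at 5.84 CPM (5.03 to 6.76) in replicate 1 and 4.71 CPM (3.99 to 5.51) in replicate 2. The log2 ratio of -0.22 had a counting interval of -0.54 to 0.10, which holds 0, and the sign turned to 0.15 after subtracting a fit of the ratio on transcript length and base composition (GC). Egr1 and Egr4 kept almost the same proportion to each other, with 19.2 counts of Egr1 per count of Egr4 in replicate 1 and 18.3 in replicate 2. Without Egr3, the Egr genes summed to 119 CPM in replicate 1 and to 94.2 CPM in replicate 2.

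**Figure D3:**
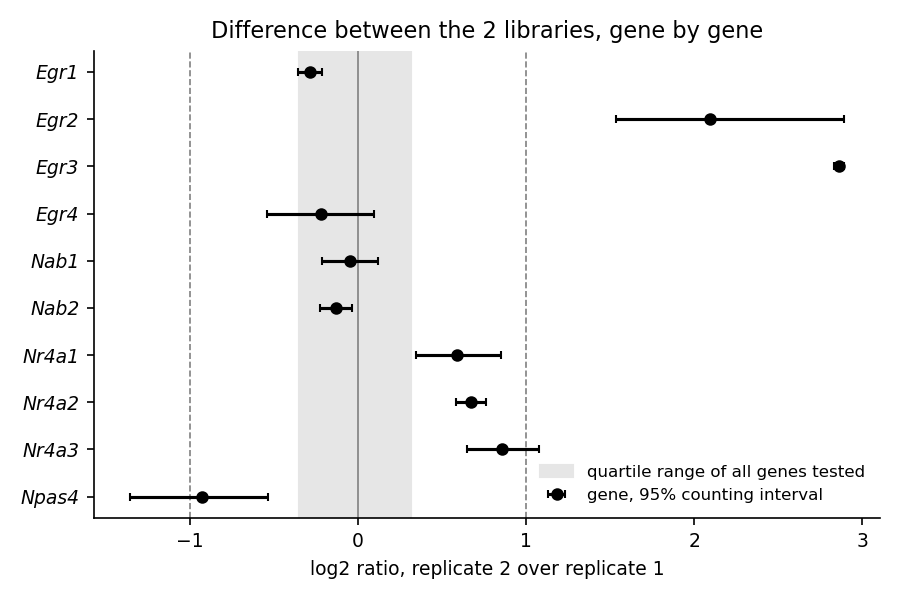
Log2 ratio of replicate 2 to replicate 1 for each of the 10 genes with exact 95% counting intervals. The grey band spans the quartiles of all genes tested (-0.35 to 0.31) and dashed lines mark 2-fold. Egr2 and Egr3 lie beyond the upper line, the 3 Nr4a genes lie between the band and that line, and Npas4 lies near the lower line.

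The Nab corepressors differed little. Nab2, which Egr factors induce and which then represses them, stood at 61.5 CPM (58.8 to 64.3) in replicate 1 and 52.7 CPM (50.2 to 55.2) in replicate 2. Its log2 ratio was -0.13 (-0.23 to -0.037), and it turned to 0.090 under the same length and GC fit. Nab1, the more steadily expressed relative, was at 20.0 and 18.2 CPM, a log2 ratio of -0.046 (-0.21 to 0.12). Nab2 took 75.5% (73.8 to 77.1) of the pair's counts in replicate 1 and 74.4% (72.5 to 76.1) in replicate 2. Counts of Egr3 per count of Nab2 were 4.94 in replicate 1 and 39.3 in replicate 2, while counts of Egr1 per count of Nab2 were 1.82 and 1.64. Nab1 lies on chromosome 1 (52457294 to 52500679) and Nab2 on chromosome 10 (127660918 to 127668568), both on the minus strand. In the annotation, 35.7% of the exon bases of Nab2 are shared with an antisense transcript, Gm16229, and small stretches with Nemp1 and Stat6 on the other strand. Neither Gm16229 nor Nemp1 is a symbol of the count tables, and Stat6, which is, shares 1.36% of the exon bases of Nab2. Reads of Nab2 could go to the ambiguous class only over genes that were counted, under these or other symbols. The sources used here do not name the strand setting, so part of the reads of Nab2 may have come from the other strand. The other 9 genes overlap no annotated gene.

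The Nr4a genes were all higher in replicate 2, by similar steps. Their genes lie apart, Nr4a1 on chromosome 15 (101254269 to 101274795, plus strand), Nr4a2 on chromosome 2 (57106830 to 57124003, minus strand) and Nr4a3 on chromosome 4 (48045153 to 48086447, plus strand). Nr4a2, also called Nurr1 and known for its role in dopamine neurons, was the most abundant, at 53.6 CPM (51.0 to 56.2) in replicate 1 and 80.2 CPM (77.2 to 83.3) in replicate 2. Nr4a3, also called Nor1, was at 8.88 CPM (7.87 to 9.99) and 15.1 CPM (13.8 to 16.5). Nr4a1, also called Nur77, was at 6.90 CPM (6.01 to 7.88) and 9.78 CPM (8.74 to 10.9). In each gene the counting intervals of the libraries did not overlap. The log2 ratios were 0.67 (0.59 to 0.76) for Nr4a2, 0.86 (0.65 to 1.08) for Nr4a3 and 0.59 (0.34 to 0.85) for Nr4a1, and those 3 intervals overlapped one another. Ratios at least as high as that of Nr4a1 are not rare, since 12.3% of genes tested were higher than it, 9.70% higher than Nr4a2 and 6.20% higher than Nr4a3.

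The proportions within the Nr4a family were nearly the same in both libraries. Nr4a2 took 77.2% (75.4 to 79.0) of the family's 2171 counts in replicate 1 and 76.3% (74.8 to 77.7) of 3439 in replicate 2. Nr4a3 took 12.8% and 14.4%, and Nr4a1 took 9.95% and 9.31%, with overlapping intervals in each case. The Egr family was different. Egr3 took 71.9% (71.2 to 72.7) of its 13235 counts in replicate 1 and 95.6% (95.5 to 95.8) of 70820 in replicate 2, while Egr1 took 26.5% (25.7 to 27.3) and 3.98% (3.84 to 4.13).

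**Figure D4:**
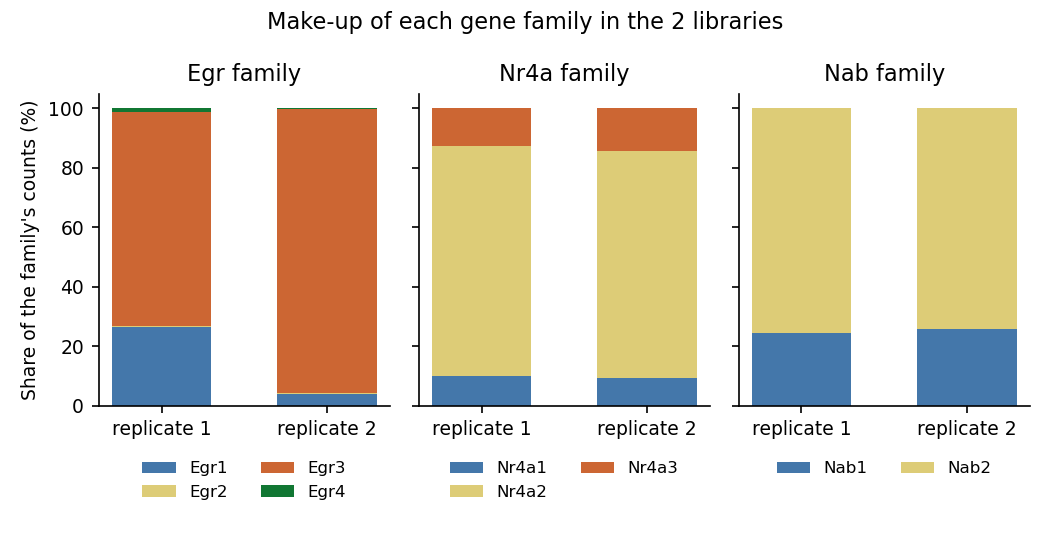
Share of each family's counts taken by each member, in percent, as stacked bars for replicate 1 and replicate 2. The Nr4a and Nab bars look alike in the 2 libraries, whereas Egr3 fills 71.9% of the Egr bar in replicate 1 and 95.6% in replicate 2.

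Npas4, a factor found mostly in neurons that adjusts inhibitory synapses after activity, differed in the opposite direction. Its gene lies on chromosome 19 (4984355 to 4990316, minus strand). It was counted 151 and 77 times, giving 4.82 CPM (4.08 to 5.66) in replicate 1 and 2.35 CPM (1.86 to 2.94) in replicate 2. The log2 ratio was -0.92 (-1.36 to -0.54), or 1.90-fold lower in replicate 2. With library totals in place of TMM scaling it was -1.02, just past 2-fold. Lower ratios than this were found in 6.60% of genes tested, and 14.4% of genes with a mean of 1 to under 10 CPM were at least 2-fold lower in replicate 2. Nr4a1 had 1.43 counts per count of Npas4 in replicate 1 and 4.16 in replicate 2. The genes nearest to Npas4 in both libraries were Palm3 at 4.89 and 2.29 CPM (distance 0.042 on the log2 CPM scale), 9530062K07Rik at 4.98 and 2.35 CPM (0.047) and Gm11201 at 4.73 and 2.45 CPM (0.062).

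The promoters of the Nr4a genes and Egr2, which were higher in replicate 2, and of Npas4, which was lower, are shown to let the factor sites be compared. RefSeq windows (GRCm38.p6) covering 250 bases before to 50 bases after a start site matched 8 of the 10 genes, without Egr1 and Egr3. They were searched on both strands for 6 motifs, with overlaps counted. These were the CArG box bound by serum response factor, the full CRE TGACGTCA, its core TGACG (here called the CRE core), the EGR site GCGNGGGCG, the Nr4a site NBRE AAAGGTCA and the TATA box TATAAA. A full CRE contains the core on both strands. Capitals mark matches to the first 5 motifs, of which the full CRE and the NBRE had none in these windows. Each sequence reads 5′ to 3′ on the gene's strand.
Nr4a1, chr15:101266596-101266895, plus strand: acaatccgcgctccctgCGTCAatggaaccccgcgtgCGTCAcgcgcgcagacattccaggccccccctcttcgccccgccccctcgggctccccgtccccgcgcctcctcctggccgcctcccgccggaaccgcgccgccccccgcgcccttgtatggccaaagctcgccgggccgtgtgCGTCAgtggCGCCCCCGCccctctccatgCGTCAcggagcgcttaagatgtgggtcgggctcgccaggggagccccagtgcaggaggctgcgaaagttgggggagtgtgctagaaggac
Nr4a2, chr2:57123954-57124253, minus strand: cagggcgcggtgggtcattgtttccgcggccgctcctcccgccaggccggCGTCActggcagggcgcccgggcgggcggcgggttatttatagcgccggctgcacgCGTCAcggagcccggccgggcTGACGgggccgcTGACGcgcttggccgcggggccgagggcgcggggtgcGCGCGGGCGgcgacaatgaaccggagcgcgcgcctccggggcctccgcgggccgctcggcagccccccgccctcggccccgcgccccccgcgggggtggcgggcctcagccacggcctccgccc
Nr4a3, chr4:48045055-48045354, plus strand: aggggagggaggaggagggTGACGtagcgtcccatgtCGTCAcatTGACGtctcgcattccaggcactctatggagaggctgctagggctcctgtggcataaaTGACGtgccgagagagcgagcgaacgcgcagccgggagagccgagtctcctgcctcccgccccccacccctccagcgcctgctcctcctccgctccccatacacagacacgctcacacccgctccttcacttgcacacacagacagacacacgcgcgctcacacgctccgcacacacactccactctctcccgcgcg
Npas4, chr19:4989922-4990221, minus strand: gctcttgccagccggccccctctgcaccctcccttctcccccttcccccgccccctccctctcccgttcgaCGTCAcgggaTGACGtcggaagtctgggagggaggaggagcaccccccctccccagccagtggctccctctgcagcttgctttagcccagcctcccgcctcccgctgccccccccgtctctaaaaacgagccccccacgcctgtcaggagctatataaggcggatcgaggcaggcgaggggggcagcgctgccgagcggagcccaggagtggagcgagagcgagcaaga
Egr2, chr10:67537619-67537918, plus strand: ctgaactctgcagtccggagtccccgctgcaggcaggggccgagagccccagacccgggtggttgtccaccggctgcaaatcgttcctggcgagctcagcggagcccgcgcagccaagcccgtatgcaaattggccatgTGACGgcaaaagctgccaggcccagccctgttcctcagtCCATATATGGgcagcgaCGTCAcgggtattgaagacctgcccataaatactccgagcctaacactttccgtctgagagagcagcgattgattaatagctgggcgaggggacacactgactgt

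Each of the 3 Nr4a windows held 4 CRE cores, a number that 0.231% of the 32851 RefSeq promoter windows of this length reach or exceed. GC content was 72.3% in the Nr4a1 window, 81.7% in Nr4a2, 64.7% in Nr4a3 and 81.7% in Nab1. The median over all windows was 52.7%. Shares of windows given here are over all windows and were not matched on GC content. The Npas4 window held 2 cores, 179 and 169 bases before the start, and the Egr4 window also held 2, at 177 and 109 bases. At least 2 cores were present in 5.01% of all windows and at least 1 in 20.8%. The Egr2 window printed is 1 of 5 for that gene and held a CArG box, CCATATATGG, 72 bases before the start, along with 2 cores. A CArG box was present in 1.63% of all windows. The other overlapping Egr2 windows hold the same box, the window just upstream holds another, CCTTTTTTGG, and the most upstream holds neither a CArG box nor a core. EGR sites, held by 5.55% of all windows, were found once in Nr4a1 and once in Nr4a2. The full CRE is held by 1.79% of all windows, the NBRE by 1.51% and the TATA box by 13.6%, and the last was matched in Nr4a2 on the opposite strand. The Nab1 window held 3 EGR sites (CGCCCACGC, GCGTGGGCG and GCGGGGGCG), which 0.195% of windows reach, and the Nab2 window held none of the 6 motifs. These are letter matches in short windows and say nothing about binding. Whether the cores, 4 in each Nr4a window and 2 in the Npas4 window, bear on the differences between the libraries was not tested.

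Genes around the activity factors were read from lists of regulators, partners and targets. The lists were chosen with earlier results of these data known, so counts within them are a description, without a test. Of 17 regulators upstream of the activity factor genes, all were detected and none was 2-fold apart. Their median log2 ratio was -0.19 beside -0.0092 over all genes tested. The most abundant was Mkl2, a coactivator of serum response factor, at 1697 and 1547 CPM. Srf itself was at 54.5 and 39.4 CPM and Creb1 at 73.4 and 96.4 CPM, log2 ratios of -0.38 and 0.48. Of 7 protein partners, 6 were tested and none was 2-fold apart, with a median of -0.14. Chd4, a chromatin remodeller that Nab proteins recruit, led them at 203 and 224 CPM. Arnt2, a partner of Npas4, was at 131 and 104 CPM. Rxra and Rxrb, partners of Nr4a1 and Nr4a2, were at 12.8 and 9.02 CPM and at 18.5 and 15.0 CPM, and Rxrg had 3 counts in replicate 1 and 0 in replicate 2, at the limit that a count of 0 allows.

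Several genes described as targets were higher in replicate 2. Of 6 Egr target genes, 5 were tested and 2 of them were at least 2-fold higher, with a list median log2 ratio of 0.46. Over all genes tested, 4.51% were that much higher, and 8.74% of those with a mean of 1 to under 10 CPM. Ngfr, the one not tested, had 0 counts in replicate 1 and 1 in replicate 2. Arc, whose product removes AMPA receptors from synapses, was at 33.2 and 265 CPM, a log2 ratio of 3.08 (2.99 to 3.18). Htr2a, a serotonin receptor gene, was at 1.76 and 5.93 CPM (1.81, 1.41 to 2.31). The most abundant, the synapsin gene Syn1, was at 910.2 and 716 CPM (-0.25). Gabra4, a GABA-A receptor subunit gene that Egr3 is known to activate, was at 163 and 211 CPM (0.46).

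Of 7 Npas4 target genes tested, 4 stood 2-fold or more higher in replicate 2 and none lower, in a list chosen with earlier results known. Over all genes tested, 4.51% were that much higher and 5.75% lower. Of genes with a mean of 1 to under 10 CPM, where Csrnp1 lies, 8.74% were that much higher. The list median log2 ratio was 1.53. Npas4 itself was lower in replicate 2. Bdnf, the neurotrophin gene, was at 61.2 and 183 CPM (1.67, 1.60 to 1.75). Nptx2, which encodes a pentraxin that clusters AMPA receptors, was at 5.24 and 24.2 CPM (2.29, 2.06 to 2.55). Plk2, a kinase gene, was the most abundant at 236 and 641 CPM (1.53). Csrnp1 was at 3.16 and 9.02 CPM (1.58, 1.27 to 1.95). The remaining 3, Gpr3 (-0.17), Mdga1 (-0.048) and the granin gene Scg2 (0.65), were within 2-fold. Bdnf is also a known target of CREB, and whether that bears on these ratios was not tested.

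Of 3 chaperone genes described as Nr4a targets, none was 2-fold apart and the median log2 ratio was 0.57. Hspa5, the main chaperone of the endoplasmic reticulum, was at 120 and 189 CPM (0.75) and Pdia6 at 36.8 and 51.3 CPM (0.57), while Sdf2l1 had a ratio of -0.22. Among 10 other rapid early genes, 7 were tested and 2 were at least 2-fold higher, beside 4.51% of all genes. These were Fosb and Arc, the latter already counted among the Egr target genes. The list median was 0.65. Fosb was at 14.9 and 56.0 CPM (counting interval of the log2 ratio 1.85 to 2.15), and Jun, the most abundant, at 203 and 252 CPM (0.41). Of the 7 tested, 5 had ratios above 0, Btg2 (0.65) and Fos (0.73) among them. Dusp1 (-0.75) and Junb (-0.24) had ratios below 0, and the counting interval of Junb (-0.60 to 0.11) holds 0. Fos was at 1.92 and 3.03 CPM, and Ier2, Klf4 and Maff had a mean under 1 CPM.

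**Figure D5:**
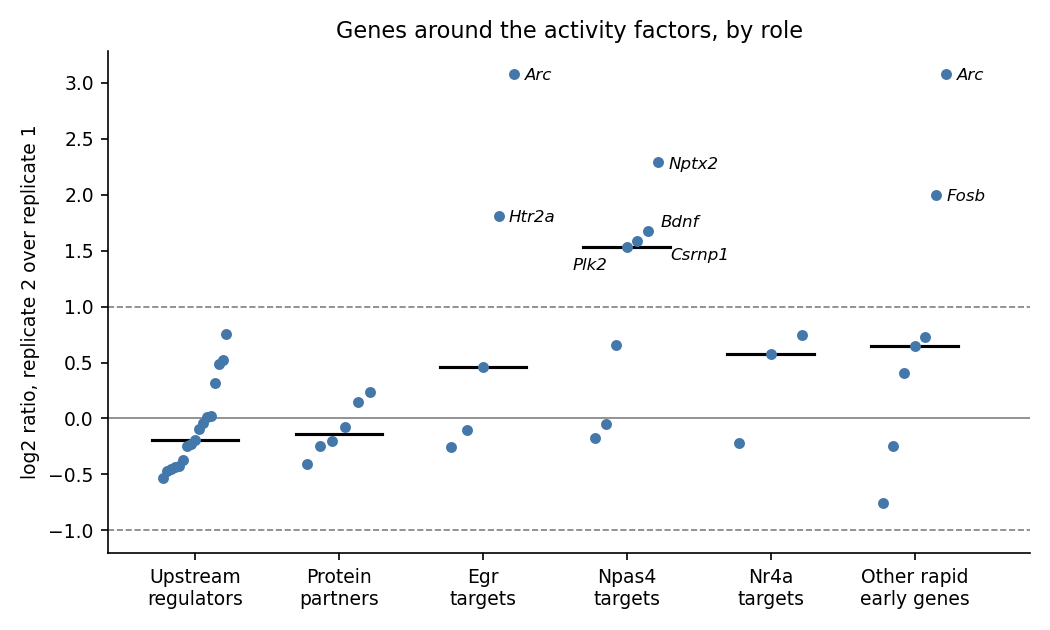
Log2 ratio of replicate 2 to replicate 1 for genes with mean CPM of 1 or more in 6 lists around the activity factors, with the list median as a bar and dashed lines at 2-fold. Genes past 2-fold are named. The 17 upstream regulators stay within 2-fold, while 4 of 7 Npas4 target genes lie above it. The lists were chosen with earlier results of these data known.

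Markers of other cells also differed between the libraries, and their part in the differences above was not tested. All 4 CA1 markers used, led by Wfs1, had ratios below 0, with summed levels of 116 and 84.4 CPM and none at 0. The 4 mossy cell markers tested, of 5, were also below 0, with Ajap1 the highest, Calb2 (-1.18) past 2-fold and sums of 58.3 and 35.8 CPM. The 3 Cajal-Retzius markers tested, of 5, were above 0, led by Reln, with sums of 59.9 and 89.1 CPM. All 3 markers of oligodendrocyte precursors were above 0, led by Pdgfra, with sums of 7.51 and 18.1 CPM, and Pdgfra (1.78) and Olig2 (1.17) were past 2-fold. Of 9 GABAergic markers 6 were tested, 3 of them above 0, with Gad1 the highest and sums of 122 and 160.0 CPM. Of these, Gad2 (1.21) and Dlx1 (2.39) were past 2-fold higher and Lhx6 (-1.38) past 2-fold lower. Sums were 76.9 and 89.5 CPM for astrocytes (Aldoc highest, 3 of 5 above 0), 179 and 136 CPM for oligodendrocytes (Mbp highest, 1 of 5 above 0) and 20.1 and 17.3 CPM for CA3 cells (Bok highest, 0 of 3 above 0).

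Egr and Nr4a genes are also expressed by microglia and by vessel cells. The 6 microglia markers, led by Csf1r, summed to 2.24 and 2.14 CPM, and the complement genes C1qa and C1qb were not counted in either library. The 5 endothelial markers summed to 18.7 and 16.7 CPM, led by Flt1 at 10.7 and 11.6 CPM. Cdh5 (-1.36) was past 2-fold lower, beside 14.4% of genes with a mean of 1 to under 10 CPM. Xist was at 0.479 and 11.3 CPM, and whether what sets it apart bears on the activity factor genes was not tested. Lypd1, at 265 and 194 CPM, and Rpl10a, at 259 and 199 CPM, were both lower in replicate 2, by log2 ratios of -0.35 and -0.28.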

How the data were processed

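Ribosome-bound RNA from the dentate gyrus was measured in 2 libraries of 1 group. The deposited values are raw counts per gene symbol. STAR 2.0.0e, HTSeq and build mm10 were named, per the submitters' processing notes, and neither annotation nor strand setting is given in the sources used here. Gene lines held 65.0% and 64.9% of all counts, and only they entered the totals. The members and lists were chosen with earlier results of these data known. Levels are CPM over gene lines. Log2 ratios used TMM-scaled totals (edgeR 4.0.16) and a prior count of 2, over the 13089 genes with mean CPM of 1 or more, with exact Clopper-Pearson counting intervals. Exon lengths and coordinates came from GENCODE M21 (GRCm38) and promoter windows from RefSeq. The libraries were not copies of each other, since the chi-square statistic of their counts was 67.8 times its degrees of freedom. The coefficient of variation between them, from edgeR's common dispersion, was 29.4%. With 1 group no test between conditions was possible. Beyond the 10 genes, a rule named the most abundant gene of each list, list genes past 2-fold, markers at 0, Lypd1, Rpl10a and the 3 genes nearest to the members with the largest and smallest ratio. One CA1 marker is not reported here. Other genes named were added after their values were seen. The ratio formula was tested on simulated data scaled by library totals and centred on the median, so that test did not cover the TMM step. Alternatives were library totals, DESeq2 1.42.0 size factors, a prior count of 0.5, other limits on low levels, totals without Rn45s and Lars2, a fit on length and GC content, and each library alone.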

Additional observations from a re-analysis of the deposited data

Results flagged for a closer look

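Counts outside the gene lines entered no comparison, and what they hold was not examined. Of all counted lines, 16.7% (replicate 1) and 17.0% (replicate 2) fell on no annotated gene. Multiple alignments accounted for 15.7% and 15.5%, and overlap with several genes for 2.61% and 2.56%. Nab2 is the only one of the 10 genes that overlaps others in the annotation used here. Of those others only Stat6 is a symbol of the count tables, so it is not known whether reads of Nab2 were lost this way. With 2 libraries in the group, no check for an outlying sample was possible.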

How the results depend on the processing

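Under other scalings, prior counts and totals, Egr2 and Egr3 were the 2 genes at least 2-fold higher in replicate 2 and log2 ratios of Egr3 ranged from 2.77 to 2.87. The Nr4a genes stayed above 0 (0.50 to 0.86) and Npas4 ranged from -1.02 to -0.92. With library totals alone, 1 of the 10 genes, Npas4, was 2-fold lower. Limiting the comparison to a mean CPM of at least 10 left 6 of the 10 genes, 1 of them 2-fold higher, and 184 genes higher and 85 lower among all. With every counted gene those were 2331 and 2149. Both settings kept the same ratios and changed only which genes were let in. At a mean CPM of at least 10, 2.18% of genes were 2-fold higher in replicate 2 and 1.01% lower. The main setting had 4.51% higher and 5.75% lower. Subtracting a fit on transcript length and GC content, available for 94.4% of genes tested, turned Nab2 from -0.13 to 0.090 and Egr4 from -0.22 to 0.15, gave 2.92 for Egr3 and -0.80 for Npas4, and the cause was not tested. The counts of genes under that fit were added after seeing the data. Of 50 log2 ratios under another setting, 43 lay within the counting interval, 6 outside it and 1 changed sign with its interval clear of 0. With each library alone, the level of Egr3 was 304 or 2071 CPM and that of Egr2 0.767 or 3.27 CPM. No paired analysis was possible because there is 1 group. Depth limits Egr2 and Npas4, with 24 and 77 counts in their lower libraries.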
